A study of Mus musculus with 6 samples.

Results

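Mitochondrial ribosomal protein genes are described here in sorted mouse macrophages. They were chosen by symbol, as every listed gene whose name begins with Mrpl or Mrps followed by a digit, which gave 78 of 21936 genes, 49 named Mrpl and 29 named Mrps. The libraries labelled CKO (n = 3) came from ALKBH5flox/flox, Lyz2-Cre, APOE-/- mice, and the libraries labelled WT (n = 3) from ALKBH5flox/flox, APOE-/- mice that lacked the Cre. Both groups thus share the floxed Alkbh5 alleles, the Apoe deletion and a high-fat diet of 4 months. Lyz2-Cre acts in myeloid cells, so it also acts in neutrophils and monocytes. Age, sex and the organ the macrophages were sorted from are not given in the sources used here. The labels do not say that the 3 libraries of a group came from different mice, and the p-values given below reflect library-to-library spread alone, part or all of which may be technical.

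The mitochondrial ribosome, or mitoribosome, translates the few messages encoded by mitochondrial DNA, all of which code for subunits of the respiratory chain and ATP synthase. All of its proteins are encoded in the nucleus, made by cytosolic ribosomes, imported, and assembled on ribosomal RNAs transcribed inside the organelle. The large subunit (mostly Mrpl genes) forms the peptide bond and holds the exit tunnel, and the small subunit (mostly Mrps genes) decodes the message. Some of the proteins have a counterpart in bacterial ribosomes and others are found only in mitochondria. Activated macrophages are known for changing how much they rely on respiration.

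By their known places 51 members belong to the large subunit and 26 to the small subunit. Mrps30 and Mrps18a bear small-subunit symbols and sit in the large subunit. Mrps36 is now known as a component of the 2-oxoglutarate dehydrogenase complex and was kept as a member by its symbol alone. The members lie on 17 chromosomes, with 11 of them on chromosome 11, and all 78 had the same coordinates in GENCODE M21 (mm10).

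The libraries held 15422154 to 18418903 reads assigned to genes. Alkbh5 went against its label, with 8.50 to 9.15 FPKM (reads scaled by gene length and by the library's total) in the libraries labelled CKO and 3.77 to 3.95 in those labelled WT. Apoe, labelled as deleted in both groups, read 89.6 to 98.1 FPKM in the libraries labelled CKO and 1607 to 1665 in those labelled WT. Directions are for that reason given between labels, and no genotype stands behind them as checked. Lyz2, also looked at as a check of the labels, read 6405 to 6797 FPKM in the libraries labelled CKO and 14327 to 16231 in those labelled WT. Whether this difference comes with the Lyz2-Cre was not tested. All 9 macrophage markers, among them Adgre1, Csf1r and Cd68, were above 1 FPKM in both groups, but they moved both ways, with 5 up and 4 down under the CKO label, among them Adgre1 at 1.80, Fcgr1 at 2.99, Cd68 at -0.95 and Lyz2 at -1.20 on the log2 scale. Their summed level was 9260 to 9690 FPKM in the libraries labelled CKO and 16400 to 18300 FPKM in those labelled WT. Most of that sum was Lyz2, at the levels given above, so it does not describe the other macrophage markers. Of 9 neutrophil markers 6 were lower in the libraries labelled CKO and none higher, and their summed level was 68.2 to 83.6 FPKM there against 613 to 895 FPKM in the libraries labelled WT. Ly6g, a defining neutrophil marker, held no read in any library labelled CKO and 4, 0 and 0 reads in those labelled WT. Of 6 dendritic cell markers Ccr7 was higher, at 21.1 FPKM in the libraries labelled CKO and 0.742 in those labelled WT on average, and the other 5 were below 1 FPKM in both groups. Cd4 was lower among 7 T and NK cell markers and Cd79b among 5 B cell markers, and the 6 erythroid and platelet markers summed to 115 to 128 FPKM in the libraries labelled CKO and 173 to 189 in those labelled WT. The part of these shifts in the results on the members was not tested. In bulk RNA, fewer cells of a type and less RNA per cell cannot be told apart.

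Promoter windows of the members with the largest rises and falls are shown first, because the members moved in both directions. Each runs from 250 bases before to 50 after the RefSeq transcription start (GRCm38.p6), 5′ to 3′ on the gene's strand. A window was found for 69 of the 78 members. Mrpl38, with the second largest rise, had none, so the next members down were taken. Capitals mark matches on either strand to one of 5 motifs: GCGC, 2 bases of any kind and GCGC again for NRF1, CCGGAAG for ETS factors such as GABP, AAGATGG for YY1, CCAAT for NF-Y, and CACGTG, the E-box. The motifs do not overlap in the windows shown.
The first 3 belong to Mrpl45 (chr11:97315466-97315765, plus strand), Mrpl27 (chr11:94653541-94653840, plus strand) and Mrpl52 (chr14:54426659-54426958, plus strand), which were higher in the libraries labelled CKO.
Mrpl45: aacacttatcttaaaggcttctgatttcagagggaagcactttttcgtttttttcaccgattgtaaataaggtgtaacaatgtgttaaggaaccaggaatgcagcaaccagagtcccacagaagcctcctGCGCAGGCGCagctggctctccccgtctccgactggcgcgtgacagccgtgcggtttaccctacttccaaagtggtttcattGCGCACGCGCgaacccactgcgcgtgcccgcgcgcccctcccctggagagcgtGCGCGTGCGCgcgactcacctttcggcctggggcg
Mrpl27: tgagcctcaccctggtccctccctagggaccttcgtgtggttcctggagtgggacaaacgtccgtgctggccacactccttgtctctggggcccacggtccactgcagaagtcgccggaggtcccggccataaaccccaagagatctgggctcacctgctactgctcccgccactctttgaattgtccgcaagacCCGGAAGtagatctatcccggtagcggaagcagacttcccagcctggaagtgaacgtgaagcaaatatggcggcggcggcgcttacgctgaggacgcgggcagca
Mrpl52: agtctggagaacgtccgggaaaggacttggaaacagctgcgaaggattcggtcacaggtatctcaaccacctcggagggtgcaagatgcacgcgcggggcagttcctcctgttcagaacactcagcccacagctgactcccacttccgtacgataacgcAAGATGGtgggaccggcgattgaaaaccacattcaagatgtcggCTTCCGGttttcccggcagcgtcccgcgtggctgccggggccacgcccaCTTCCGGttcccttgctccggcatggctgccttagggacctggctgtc
The other 3 belong to Mrps6 (chr16:92058086-92058385, plus strand), Mrpl41 (chr2:24975049-24975348, minus strand) and Mrpl23 (chr7:142532782-142533081, plus strand), which were lower.
Mrps6: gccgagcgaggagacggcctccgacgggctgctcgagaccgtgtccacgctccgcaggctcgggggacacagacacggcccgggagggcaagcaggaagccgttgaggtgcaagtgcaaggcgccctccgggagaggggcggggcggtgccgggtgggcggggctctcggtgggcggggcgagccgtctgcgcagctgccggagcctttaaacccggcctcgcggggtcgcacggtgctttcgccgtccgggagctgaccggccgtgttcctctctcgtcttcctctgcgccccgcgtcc
Mrpl41: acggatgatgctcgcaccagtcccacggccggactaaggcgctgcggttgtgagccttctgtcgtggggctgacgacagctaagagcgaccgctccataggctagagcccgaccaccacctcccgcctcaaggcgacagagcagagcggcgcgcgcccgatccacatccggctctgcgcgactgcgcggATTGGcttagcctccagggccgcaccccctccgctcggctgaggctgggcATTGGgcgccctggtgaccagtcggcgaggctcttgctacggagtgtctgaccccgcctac
Mrpl23: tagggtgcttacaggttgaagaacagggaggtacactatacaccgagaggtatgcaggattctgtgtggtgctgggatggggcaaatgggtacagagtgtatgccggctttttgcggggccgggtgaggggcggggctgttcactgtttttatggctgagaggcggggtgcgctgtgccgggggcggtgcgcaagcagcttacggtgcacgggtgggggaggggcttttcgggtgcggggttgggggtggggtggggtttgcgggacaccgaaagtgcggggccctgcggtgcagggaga

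Mrpl45 held 3 NRF1 matches, whose first bases lie at -120, -38 and 15 with the start base counted as 0, and Mrpl52 held 1 YY1 match at -91 and 2 ETS matches at -47 and 2. Mrpl27 held 1 ETS match at -55, Mrpl41 held 2 CCAAT matches, and Mrps6 and Mrpl23 held none of the 5 motifs in this window. Over all members the ETS motif was in 34.7% of 75 windows, against 8.86% of all 32851 windows and 19.1% of the 10289 windows of genes tested. For NRF1 the shares were 18.7% of member windows, 6.23% of all and 13.9% of those of tested genes, and for YY1 17.3%, 6.34% and 7.68%. Another NRF1 pattern, the ungapped GCATGCG, was in 10.7% of member windows, 3.58% of all and 6.65% of those of tested genes. It was in none of the 6 windows shown. CCAAT (40.0%, 37.4% and 37.3%) and the E-box (9.33%, 7.15% and 10.4%) were in nearly equal shares. Among members with a window, the ETS motif was in 9 of 30 that were higher, 3 of 13 that were lower and 12 of 24 that were not called. The YY1 motif was in 8 of 30, 1 of 13 and 4 of 24, and the NRF1 motif in 7 of 30, 2 of 13 and 5 of 24, in the same order. The ungapped GCATGCG was in 6 of 30, 0 of 13 and 1 of 24. These motifs were chosen after the members' changes were known, and the shares were not tested. A match describes letters in the window and is not a measured binding site.

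Mitochondrial ribosomal protein genes moved in both directions, and more of them rose than fell in the libraries labelled CKO. Of 78 members, 76 had at least 1 FPKM in at least 3 libraries and were tested, and 34 rose, 15 fell and 27 did not pass the test (limma on log2(FPKM + 1), adjusted p under 0.05 over all 9953 genes tested). The 49 calls stand beside 81.1% of all genes tested that were called in either direction. As shares of the tested members these were 44.7% higher and 19.7% lower, beside 30.5% called higher and 50.5% called lower over all genes tested. The median change of the members was 0.10 on the log2 scale, against -0.14 over all genes tested. Changes were mostly small, with 14 called members moving by at least 0.5, of which 10 rose and 4 fell. The same size was reached by 41.4% of all genes tested.

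The split between higher and lower depended on the scaling of the libraries. Median-of-ratios scaling moved the median over all genes by 0.14 on the log2 scale, and then 45 members (59.2%) were higher and 11 (14.5%) lower, beside 39.7% and 39.8% of all genes tested (79.5% in either direction). Quantile normalization gave 43 higher and 11 lower members, beside 35.9% and 43.4% (79.3%), and limma voom on reads recovered from FPKM gave 30 higher and 16 lower, beside 30.5% and 50.7% (81.2%). The higher members made up 69.4% of the members' calls before and 80.4% after that scaling, and over all genes tested 37.7% and 49.9%. The members' median lay above the median of all genes by 0.24 as deposited, by 0.25 after the scaling and by 0.12 with no filter on low values, where the median over all 15665 genes was -0.03. No called member turned to a call in the other direction under any of the 15 alternatives run.

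**Figure D1:**
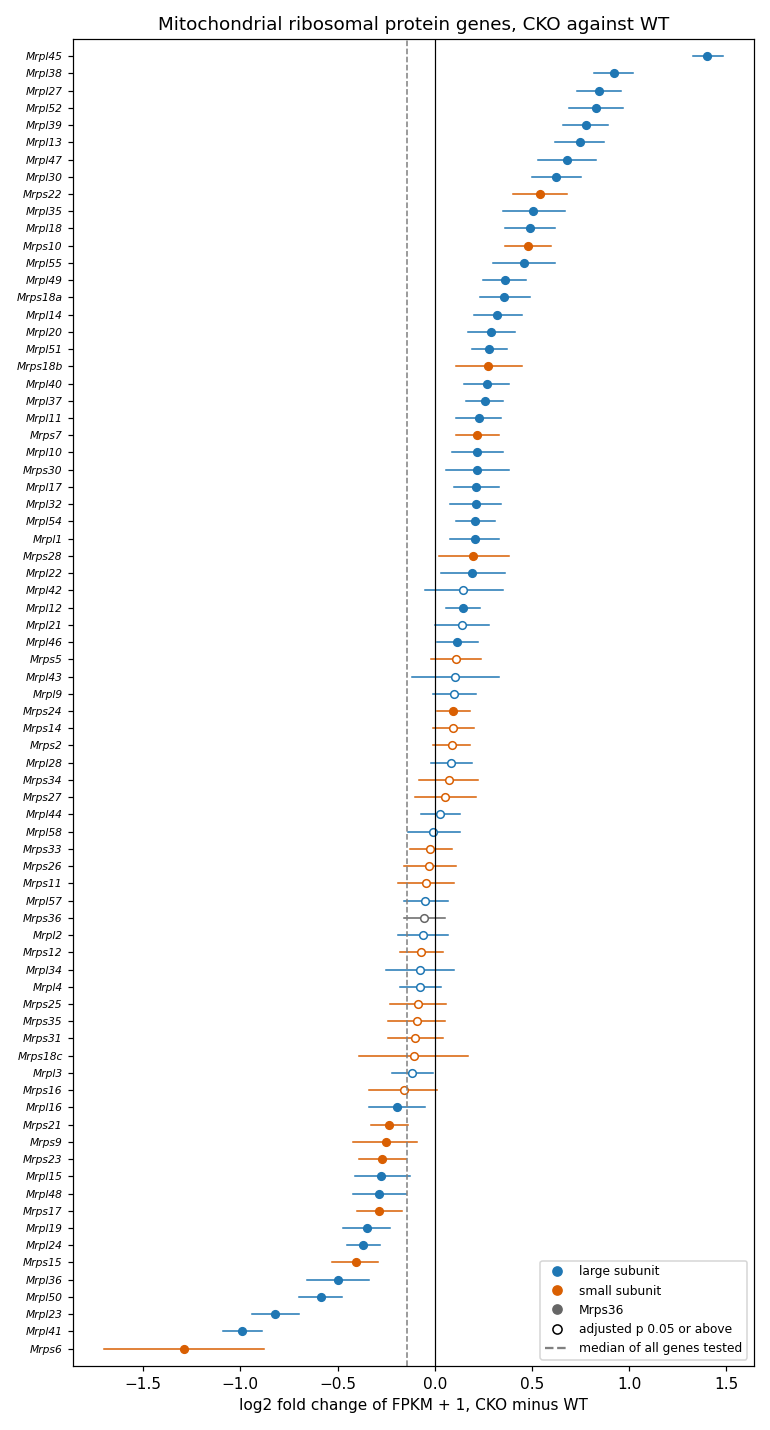
Change of each tested member (log2 fold change of FPKM + 1, libraries labelled CKO minus WT, n = 3 each, with its 95% interval from limma), coloured by subunit. Filled points passed the test (34 to the right, 15 to the left), and the dashed line at -0.14 is the median over all 9953 genes tested. Mrpl45 stands at 1.40 and Mrps6 at -1.29.

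Large-subunit genes made up most of the rises and also most of the falls, being 49 of the 76 tested members. Of these 49 members 28 rose, 9 fell and 12 did not pass the test, with a median of 0.21. Among 26 small-subunit members 6 rose, 6 fell and 14 did not pass, with a median of -0.04. The shares were 57.1% higher and 18.4% lower for the large subunit and 23.1% each for the small. Over all genes tested they were 30.5% and 50.5%. After median-of-ratios scaling these medians were 0.35 and 0.10, so the sign of the small-subunit median changed. The counts were then 33 (67.3%) higher and 8 (16.3%) lower for the large and 12 (46.2%) higher and 3 (11.5%) lower for the small subunit. Over all genes tested 39.7% were higher and 39.8% lower after that scaling. The summed level of the 51 large-subunit genes was 691, 706 and 705 FPKM in the libraries labelled CKO, against 590, 612 and 605 FPKM in those labelled WT. For the 26 small-subunit genes it was 243, 247 and 249 FPKM in the libraries labelled CKO, against 267, 260 and 262 FPKM in those labelled WT. The groups did not overlap for either sum, which was 16.3% higher for the large subunit and changed by -6.23% for the small subunit as deposited. After median-of-ratios scaling the small-subunit sum turned to 5.46% higher, at 258, 261 and 266 in the libraries labelled CKO and 250, 247 and 247 in those labelled WT, and the large-subunit sum was 30.8% higher. The difference between the subunits was not tested.

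**Figure D2:**
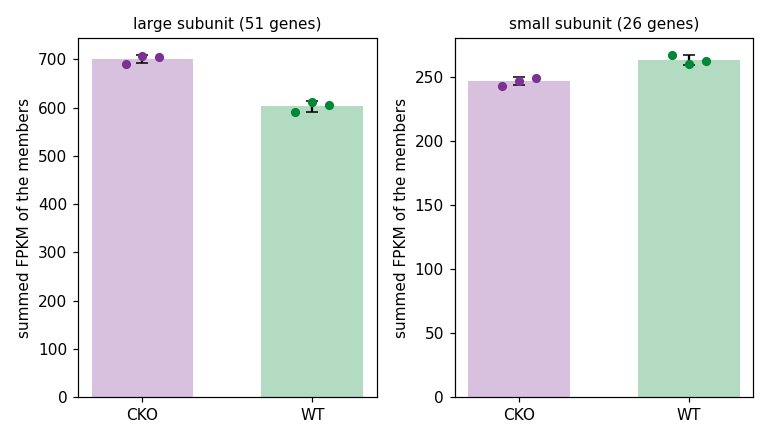
Summed FPKM of the large-subunit (51) and small-subunit (26) genes in libraries labelled CKO and WT. Values are as deposited. Bars show means, error bars the SD over n = 3 libraries, and points the libraries. The large-subunit sums are at least 691 in the libraries labelled CKO and at most 612 in those labelled WT.

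Proteins with a bacterial counterpart and those classed as mitochondria-specific had nearly equal medians within each subunit. Mrps18a and Mrps18b, which are paralogs of a bacterial protein, were counted as mitochondria-specific. In the large subunit 16 of 29 tested genes with a counterpart rose and 6 fell, and 12 of 20 mitochondria-specific ones rose and 3 fell, with medians of 0.19 and 0.21. In the small subunit 4 of 16 genes with a counterpart rose and 5 fell, and 2 of 10 mitochondria-specific ones rose and 1 fell, with medians of -0.06 and -0.03.

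Mrpl45 had the largest rise of any member. Its protein lies at the end of the exit tunnel and helps to hold the mitoribosome at the inner membrane. It read 56.6, 55.8 and 57.0 FPKM in the libraries labelled CKO and 20.7, 21.4 and 20.2 FPKM in those labelled WT. The groups were far apart, with a log2 fold change of 1.40 in limma (SE 0.034, adjusted p = 9.7e-12). The gene lies on chromosome 11 from 97315716 to 97329920 (mm10). By exact permutation (two-sided), p was 0.1 for Mrpl45 and for each tested member whose groups do not overlap, and no smaller value can be had with 3 libraries a group.

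The other proteins around the tunnel exit moved in both directions. Mrpl23, a contact site for factors at the exit, read 3.11, 3.01 and 3.46 FPKM in the libraries labelled CKO and 6.34, 6.33 and 6.53 FPKM in those labelled WT. Every library labelled CKO was lower than every library labelled WT, with a limma estimate of -0.82 on the log2 scale (SE 0.056, adjusted p = 8.62e-08 in limma). Mrpl24, its neighbour in the ribosome, read 15.5, 14.9 and 15.5 FPKM in the libraries labelled CKO and 20.0, 19.5 and 20.6 FPKM in those labelled WT, again without overlap (log2 fold change -0.37). Mrpl47, the counterpart of bacterial L29, read 3.28, 3.18 and 3.67 FPKM in the libraries labelled CKO and 1.84, 1.54 and 1.81 FPKM in those labelled WT (log2 fold change 0.68). Mrpl17 and Mrpl22 rose by 0.21 and 0.19, and the groups overlapped for Mrpl22. Of these 6 genes 4 (66.7%) rose and 2 (33.3%) fell, beside 30.5% and 50.5% of all genes tested. They were grouped by their known place in the ribosome after their values were seen, like the central protuberance and stalk below.

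Most genes for the central protuberance rose. This is the crown of the large subunit, where it meets the small subunit and the transfer RNAs. Of 9 such genes 7 (77.8%) rose, 1 (11.1%) fell and 1 did not pass the test, with a median of 0.46. The shares were 57.1% and 18.4% in the whole large subunit, and 30.5% and 50.5% over all genes tested. Mrpl38, a mitochondria-specific protein, read 21.2, 22.8 and 21.0 FPKM in the libraries labelled CKO and 10.9, 10.6 and 11.5 FPKM in those labelled WT. Its libraries fell into separate ranges, with a log2 fold change of 0.92 (SE 0.046, adjusted p = 5.28e-09 in limma). Mrpl27, the counterpart of bacterial L27 near the site of peptide bond formation, read 30.6, 28.9 and 29.4 FPKM in the libraries labelled CKO and 16.2, 17.3 and 14.8 FPKM in those labelled WT (log2 fold change 0.85, SE 0.052, adjusted p = 3.48e-08 in limma). Mrpl52, another mitochondria-specific protein, read 28.6, 26.5 and 27.2 FPKM in the libraries labelled CKO and 13.9, 14.4 and 16.8 FPKM in those labelled WT (log2 fold change 0.83). Neither gene had overlapping groups. Mrpl18, the counterpart of bacterial L18, Mrpl55, Mrpl40 and Mrpl46 rose by 0.49, 0.46, 0.27 and 0.11. Mrpl46 had the largest adjusted p among called members (0.0493, limma) and lost its call in 10 of the 15 alternatives. Mrpl48 went the other way, at 2.98, 2.60 and 2.78 FPKM in the libraries labelled CKO and 3.61, 3.81 and 3.42 FPKM in those labelled WT (log2 fold change -0.28). Mrpl58, a peptidyl-tRNA hydrolase that rescues stalled mitoribosomes, averaged 2.81 ± 0.120 FPKM in the libraries labelled CKO and 2.83 ± 0.231 in those labelled WT (SD, n = 3 each) and did not pass the test.

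The stalk genes rose by small amounts. Mrpl12, which recruits translation factors and is also known to bind the mitochondrial RNA polymerase, read 27.3, 28.6 and 29.1 FPKM in the libraries labelled CKO and 25.7, 26.0 and 25.0 FPKM in those labelled WT (log2 fold change 0.14, SE 0.037, adjusted p = 0.00427 in limma). Mrpl10, which anchors it, and Mrpl11, at the stalk base, rose by 0.22 and 0.23. All 3 had separate groups, as did 82.5% of all genes tested in either direction.

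Another 4 genes of the large subunit and 1 of the small subunit completed the 10 largest rises. Mrpl39, a mitochondria-specific protein, read 16.0, 15.7 and 15.7 FPKM in the libraries labelled CKO and 9.56, 8.29 and 8.67 FPKM in those labelled WT (log2 fold change 0.78). Mrpl13, a counterpart of bacterial L13, read 5.22, 5.79 and 5.66 FPKM in the libraries labelled CKO and 2.97, 2.85 and 2.92 FPKM in those labelled WT (log2 fold change 0.74). Mrpl30, whose counterpart is bacterial L30, read 16.9, 18.9 and 18.4 FPKM in the libraries labelled CKO and 12.2, 10.7 and 11.2 FPKM in those labelled WT (log2 fold change 0.63). In each of these genes the lowest library labelled CKO was above the highest labelled WT. Mrpl35 read 6.69, 6.73 and 8.15 FPKM in the libraries labelled CKO and 4.53, 4.65 and 5.08 FPKM in those labelled WT (log2 fold change 0.51). Mrps22, a mitochondria-specific small-subunit protein, mutated in a human mitochondrial disease, read 4.65, 4.24 and 4.94 FPKM in the libraries labelled CKO and 2.84, 3.03 and 2.68 FPKM in those labelled WT (log2 fold change 0.54, SE 0.064, adjusted p = 1.04e-05 in limma). The other 24 members that rose did so by 0.09 to 0.49, among them Mrps10 at 0.48 and Mrpl49 at 0.36.

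**Figure D3:**
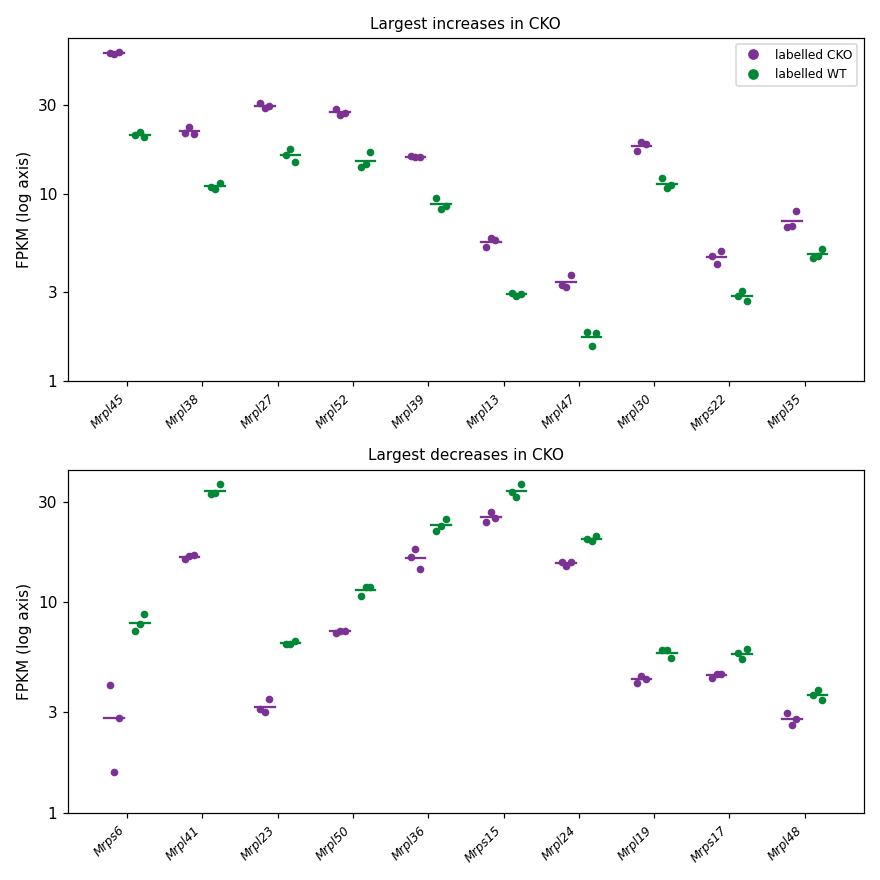
FPKM (log axis) in each library for the 10 largest rises (upper panel) and the 10 largest falls (lower panel), libraries labelled CKO left and WT right for each gene, with a line at each mean. No gene has overlapping groups, and Mrps6 runs from 1.57 to 4.04 in the libraries labelled CKO.

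Mrps6 had the largest fall. Its protein is a counterpart of bacterial S6 in the small subunit. It read 4.04, 1.57 and 2.82 FPKM in the libraries labelled CKO and 7.26, 7.92 and 8.81 FPKM in those labelled WT. On the log2 scale its libraries labelled CKO differed widely among themselves, yet all were below the libraries labelled WT (log2 fold change -1.29, SE 0.185, adjusted p = 5.56e-05 in limma). Of its exon bases 19.9% are shared with other genes on the same strand, among them Slc5a3, a myo-inositol transporter gene that averaged 1.53 ± 0.217 FPKM in the libraries labelled CKO and 20.3 ± 2.06 in those labelled WT (SD, n = 3 each). Whether reads of the shared exons moved with Slc5a3 was not tested.

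Mrpl41 and Mrpl50, both mitochondria-specific, had large falls in the large subunit. Mrpl41, which is also known to bind the survival protein BCL2, read 16.1, 16.5 and 16.8 FPKM in the libraries labelled CKO and 32.5, 32.8 and 36.2 FPKM in those labelled WT. The groups were clearly apart (log2 fold change -0.99, SE 0.045, adjusted p = 2.32e-09 in limma). Mrpl50 read 7.15, 7.30 and 7.33 FPKM in the libraries labelled CKO and 10.7, 11.8 and 11.8 FPKM in those labelled WT (log2 fold change -0.59, SE 0.050, adjusted p = 5.98e-07 in limma). The libraries labelled CKO lay within a narrow range below all those labelled WT.

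The remaining falls were smaller and fell on both subunits. Mrpl36, a small zinc-binding protein, read 16.3, 17.9 and 14.3 FPKM in the libraries labelled CKO and 21.7, 23.1 and 24.7 FPKM in those labelled WT (log2 fold change -0.50). Mrps15, whose bacterial counterpart binds the 16S RNA early in assembly, read 24.0, 26.7 and 25.0 FPKM in the libraries labelled CKO and 33.4, 31.7 and 36.4 FPKM in those labelled WT (log2 fold change -0.41). Mrpl19, at the interface of the subunits in bacteria, read 4.13, 4.46 and 4.32 FPKM in the libraries labelled CKO and 5.92, 5.91 and 5.46 FPKM in those labelled WT (log2 fold change -0.35). Groups did not overlap in any of these. Mrps17, another RNA-binding protein of the small subunit, read 4.35, 4.58 and 4.54 FPKM in the libraries labelled CKO and 5.72, 5.40 and 5.99 FPKM in those labelled WT (log2 fold change -0.29). The other 5 members that fell did so by -0.20 to -0.27, and of these Mrpl16, Mrps9, Mrps21 and Mrps23 lost their calls after median-of-ratios scaling.

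The Mrps18 genes are paralogs of 1 bacterial protein that occupy different places. Mrps18a, in the large subunit, read 12.8, 11.5 and 13.2 FPKM in the libraries labelled CKO and 9.17, 10.2 and 9.19 FPKM in those labelled WT (log2 fold change 0.36, SE 0.058, adjusted p = 1.59e-04 in limma). Mrps18b, in the small subunit, read 7.24, 6.92 and 7.74 FPKM in the libraries labelled CKO and 6.65, 5.87 and 5.11 FPKM in those labelled WT (log2 fold change 0.28, SE 0.077, adjusted p = 0.00624 in limma). Both rose with separate groups. Mrps18c, which takes the bacterial position in the small subunit, read 1.25, 1.51 and 2.24 FPKM in the libraries labelled CKO and 1.77, 2.23 and 1.56 FPKM in those labelled WT. Its groups overlapped, it held only 23 to 43 reads per library, and its 95% interval ran from -0.39 to 0.17.

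The 27 tested members that did not pass the test changed by -0.16 to 0.15, and their 95% intervals together spanned -0.39 to 0.35. Mrpl34 had the highest level of all members, at 46.8, 55.0 and 46.9 FPKM in the libraries labelled CKO and 45.4, 56.4 and 55.2 FPKM in those labelled WT. Its groups overlapped (log2 fold change -0.07, 95% interval -0.25 to 0.10). Mrps36 read 15.3, 14.4 and 15.2 FPKM in the libraries labelled CKO and 14.7, 15.8 and 16.2 FPKM in those labelled WT (95% interval -0.16 to 0.05). Mrpl3, just outside the threshold, read 5.87, 6.12 and 5.90 FPKM in the libraries labelled CKO and 6.32, 6.46 and 6.87 FPKM in those labelled WT (log2 fold change -0.12, adjusted p = 0.0506 in limma). Its groups did not overlap. In all, 35 tested members were higher and 16 lower without overlap between groups, beside 31.2% and 51.3% of all genes tested (82.5% in either direction).

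Levels differed widely among members of what is a particle with 1 copy of most proteins. Averaged over the 6 libraries, 38 tested members reached 10 FPKM, 16 lay from 5 to 10 and 22 were under 5, with a median of 9.99. After Mrpl34 at 51.0 FPKM came Mrpl45 at 38.6, Mrps21 at 37.1, Mrps15 at 29.5 and Mrpl12 at 27.0. Mrps21 read 33.6, 33.4 and 35.0 FPKM in the libraries labelled CKO and 42.8, 38.7 and 39.3 FPKM in those labelled WT (log2 fold change -0.24). Mrps35 was lowest of those tested at 1.48. FPKM divides by a listed length that joins the exons of all transcripts of a gene, from 607 to 8631 bases among the members, so a long rarely used exon lowers the value.

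Mrpl33 and Mrpl53 did not pass the filter. Mrpl33 read 0.566, 0.708 and 0.567 FPKM in the libraries labelled CKO and 0.756, 0.647 and 0.934 FPKM in those labelled WT, over a listed length of 7326 bases. Mrpl53 is listed at 0 in every library, where 3 reads would give 0.206 to 0.246 FPKM. Of its exon bases 88.0% lie within exons of Gm42688 on the same strand, which itself held 1 to 7 reads per library. How reads of shared exons were assigned is not given in the sources used here.

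Exons of 22 members overlap those of another listed gene, 4 on the same strand and 19 on the other strand, with Mrps34 in both. Without these 22 members 25 of 55 tested rose and 10 fell, with a median of 0.09. The library kit keeps the strand, but whether reads were counted by strand is not stated, so for Mrps25, Mrps34, Mrpl19, Mrpl43, Mrpl24 and Mrpl47, with 24.2% to 69.8% of their exon bases opposite another gene, the partner's reads cannot be told apart.

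Some members have a start region in common with a neighbour. A gene on the other strand started within 1000 bases upstream for 18 of 78 members (23.1%), against 6.70% of all listed genes and 11.1% of genes tested. Both partners were called in 10 pairs, in the same direction in 6 and in opposite directions in 4. Of all genes tested 81.1% were called, and the matching shares over all such pairs are not given here. The split is therefore no result about the members. Mrpl30 at 0.63 and Mitd1, a gene of cell division, at 1.68 rose together, with starts 66 bases apart, and Mrpl32 at 0.21 was beside the proteasome gene Psma2 at 0.94. In the other direction Mrpl41 at -0.99 was beside the phospholipase gene Pnpla7 at -2.35. Mrpl49 at 0.36 was beside Fau, a cytosolic ribosomal protein gene, at -0.76, with starts 59 bases apart. These pairs were singled out after their values were seen.

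Only 4 mitoribosomal proteins with other symbols were tested, of which 3 rose and 1 fell. These counts stand beside 30.5% called higher and 50.5% called lower over all genes tested. Chchd1 at 0.65, Dap3, a GTP-binding protein of the small subunit, at 0.40 and Ptcd3 at 0.20 rose, and Aurkaip1 at -0.30 fell. Gadd45gip1 was below the filter, at 0.19 FPKM on average in the libraries labelled CKO and 0.294 in those labelled WT. Chchd1 averaged 30.3 ± 1.94 FPKM in the libraries labelled CKO and 19.0 ± 1.96 in those labelled WT (SD, n = 3 each).

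Genes that build and run the mitoribosome rose and fell in shares that are to be read against 30.5% called higher and 50.5% called lower over all genes tested. Of 23 tested assembly and RNA modification factors 4 (17.4%) rose and 8 (34.8%) fell, with a median of -0.10, among them Mettl17 at -0.66, the GTPase Noa1 at -0.62, the maturation factor Rbfa at -0.40 and the pseudouridine synthase Rpusd4 at -0.39. Of 12 translation factors 2 (16.7%) rose and 5 (41.7%) fell (median -0.13). Oxa1l, which inserts new chains into the inner membrane, averaged 9.10 ± 0.189 FPKM in the libraries labelled CKO and 18.0 ± 0.615 in those labelled WT (SD, n = 3 each; log2 fold change -0.91). Guf1, an elongation factor, changed by -0.51 and Gfm2, which splits ribosomes for recycling, by -0.30, and Tufm, which brings transfer RNAs to the ribosome, rose by 0.20. Of 15 mitochondrial aminoacyl-tRNA synthetases 1 (6.67%) rose and 7 (46.7%) fell (median -0.20), with Wars2 at -0.81, Mars2 at -0.67, Iars2 at -0.28 and Aars2 at 0.25. The share that fell was below that of all genes in each of these lists, and the difference from the mitoribosomal proteins was not tested. After median-of-ratios scaling the counts were 7 (30.4%) higher and 5 (21.7%) lower for assembly factors and 3 (25.0%) and 4 (33.3%) for translation factors. For the synthetases they were 3 (20.0%) and 2 (13.3%). The order of rises and falls thus changed for the first and last of these lists. Over all genes tested the split changed as well, to 39.7% higher and 39.8% lower, and each list was below both shares.

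Of 10 tested genes for transcription and replication of mitochondrial DNA 1 rose, 6 (60.0%, beside 50.5% of all genes) fell and 3 did not pass the test. The counts were the same after median-of-ratios scaling, with a median of -0.38 as deposited and -0.25 scaled. The rise was in Tefm, an elongation factor of mitochondrial transcription, at 0.42, which is named after its value was seen. Ssbp1, which coats single-stranded mitochondrial DNA, changed by -0.95, the transcription factor Tfb2m by -0.83, the RNA-binding Lrpprc by -0.56 and the polymerase Polg by -0.41. Polrmt, the polymerase bound by Mrpl12, named after its values were seen, averaged 4.71 FPKM in the libraries labelled CKO and 6.53 in those labelled WT (log2 fold change -0.40). All 11 tested messages of mitochondrial DNA fell as deposited, and 8 (72.7%, beside 39.8% of all genes) after that scaling, with mt-Nd1 and mt-Nd2 at -0.87 and -0.79, mt-Cytb at -0.64 and mt-Nd4 at -0.59. Their summed level was 6587 to 6751 FPKM in the libraries labelled CKO and 9522 to 10050 in those labelled WT. The largest part was mt-Co1, at 3637 to 3682 FPKM in the libraries labelled CKO and 4865 to 5129 in those labelled WT. At the other end mt-Nd3 held only 6 to 14 reads per library. Why the levels of these messages differ so widely was not tested.

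**Figure D4:**
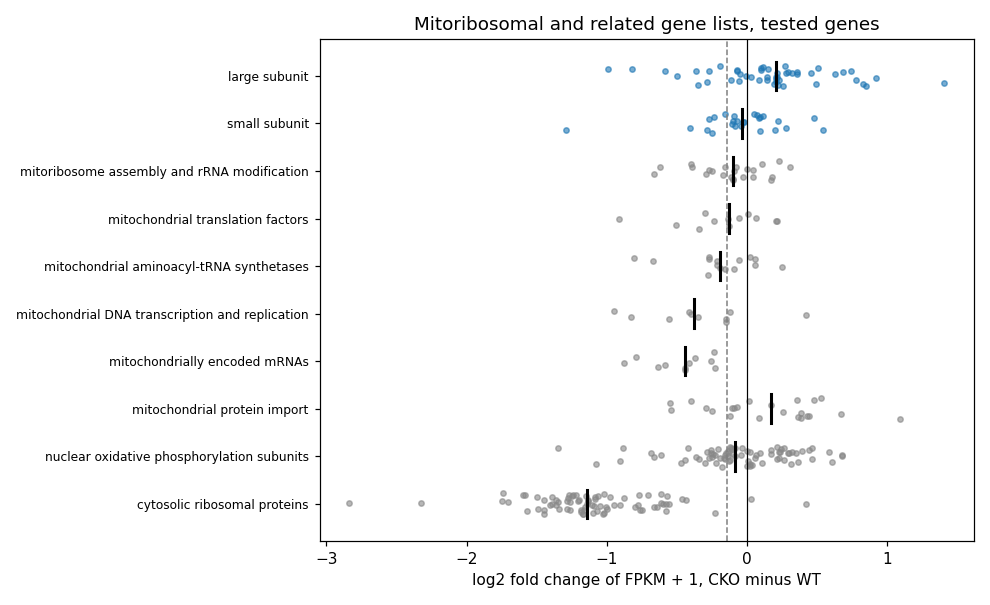
Change (log2 fold change of FPKM + 1, libraries labelled CKO minus WT) of each tested gene in the mitoribosomal subunits and 8 related lists, with black bars at the medians and a dashed line at the median of all genes tested (-0.14). The medians run from 0.21 for the large subunit to -1.14 for cytosolic ribosomal proteins.

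Cytosolic ribosomal protein genes stood apart from the mitochondrial ones. Of 78 tested 75 (96.2%) fell and 1 rose, with a median of -1.14 against 0.10 for the mitochondrial members, and the summed level was 7089 ± 236 FPKM in the libraries labelled CKO and 15281 ± 152 in those labelled WT (SD, n = 3 each). Rpl3 changed by -2.33, Rpl10a by -2.84, Rps23 by -1.50 and Rpl10 by -1.45. The summed level of all 78 mitochondrial members was 962 ± 10.9 FPKM in the libraries labelled CKO and 881 ± 8.67 in those labelled WT (SD, n = 3 each). FPKM values of a library share 1 total, so the level of so abundant a list and the levels of all other genes are not independent. The difference between the 2 kinds of ribosomal genes was not tested as such.

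Nuclear genes for respiratory subunits went both ways, in shares that as deposited were near those of all genes. Of 76 tested 24 (31.6%, beside 30.5%) rose and 36 (47.4%, beside 50.5%) fell with a median of -0.09. After median-of-ratios scaling 33 (43.4%, beside 39.7%) rose and 15 (19.7%, beside 39.8%) fell, so the share of falls was then lower than over all genes. Their summed level was 3504 ± 87.7 FPKM in the libraries labelled CKO and 3500 ± 53.0 in those labelled WT as deposited (SD, n = 3 each), and 12.6% higher after that scaling. Atp5b, a catalytic subunit of ATP synthase, rose by 0.68 and Sdhd, a membrane anchor of succinate dehydrogenase, by 0.61, while Atp5g2 and Ndufb11 changed by -1.34 and -0.89. Of 23 protein import genes 12 (52.2%) rose and 6 (26.1%) fell (median 0.17), with Timm17a at 1.09, Timm23 at 0.67 and the chaperone Hspa9 at 0.52, and the receptor Tomm20 at -0.54.

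Of 8 tested regulators of nuclear genes for mitochondrial proteins 3 rose and 4 fell, against 4 and 3 after median-of-ratios scaling. Nrf1, which binds many such promoters, averaged 5.47 ± 0.141 FPKM in the libraries labelled CKO and 2.46 ± 0.0477 in those labelled WT (SD, n = 3 each), or 0.90 on the log2 scale (SE 0.051, adjusted p = 1.63e-08 in limma). Esrra, an orphan nuclear receptor, rose by 0.53. Gabpa, an ETS factor, changed by -0.46 and Myc by -0.63. Whether these factors bound the members' promoters was not measured.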

How the data were processed

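Per the file headers, the authors deposited 1 table of FPKM values for each of 6 libraries. The tools named in the submitters' processing notes, without role or order, were GATK 4.0.11.0, DESeq2 1.22.1, Cufflinks, fastp 0.19.3, featureCounts 1.6.2, HISAT2 2.1.0 and StringTie 1.3.4d, and the build was mm10. RNA was extracted with TRIzol and libraries were made with a stranded mRNA kit, per the labels' protocols. FPKM multiplied by the listed length gave whole reads for 100% of values within 0.1 reads. For all 78 members the listed length equalled the joined exons in GENCODE M21. A floor of 3 reads for 1 kb was 0.163 to 0.195 FPKM and covers counting error only.

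Groups came from the sample titles. The filter asked for 1 FPKM or more in 3 or more libraries. The test was limma 3.58.1 with an intensity trend (R 4.3.3), run on log2(FPKM + 1) with no term but the group, and fold changes, labelled CKO minus labelled WT, understate those of low genes. Adjustment over all genes tested followed Benjamini and Hochberg, with calls at an adjusted p under 0.05. The fit was tested on simulated data in which only a small part of the genes was changed. Of the genes tested here 81.1% were called, so that run does not speak for the scaling of these libraries. Python 3.11.15, pandas 2.3.3 and scipy 1.17.1 were used for the rest.

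The members and lists were chosen with earlier results of these data known. Named were the 10 called members with the largest change in each direction, the 5 with the highest mean FPKM, the Mrps18 genes, Mrps36, Mrpl12, those below the filter, those next to the threshold, and up to 4 members of each related list with the smallest p. Further members were named for their place in the ribosome after their values were seen. Other settings tried were median-of-ratios scaling, quantile normalization, limma voom on the recovered reads, no trend, pseudocounts of 0.5 and 0.1, a filter at mean FPKM 5 or none, a block on replicate number, and leaving out single libraries.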

Additional observations from a re-analysis of the deposited data

How the results depend on the processing

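The count of members that rose (34) was 26 to 45 and the count that fell (15) was 11 to 17 over the 15 alternatives, the lowest count of rises coming from a mean FPKM of at least 5, under which only 54 members were tested. With the replicate number as a block, 32 rose and 15 fell. Same-numbered libraries did not deviate together (correlations 0.0188, 0.0120 and -0.0388), so the numbers give no pairing. The median change of the members (0.10) was 0.25 after median-of-ratios scaling and 0.19 after quantile normalization. Median-of-ratios scaling moves all members up; for quantile normalization the cause was not tested. The summed small-subunit level (-6.23%) turned to 5.46% after median-of-ratios scaling, added after the data were seen. Leaving out 1 library gave 30 to 35 members higher, 14 to 17 lower, a median of 0.08 to 0.12, and 202 to 212 calls in the related lists (210 in all). Of 49 called members 38 kept their call and direction in every alternative in which they were fitted, 29 higher and 9 lower. The others were Mrpl15, Mrpl16, Mrpl22, Mrpl46, Mrpl48, Mrps9, Mrps21, Mrps23, Mrps24, Mrps28 and Mrps30. Mrps33 (-0.02 as deposited) reached 0.13 and a call after median-of-ratios scaling, which moves all members up. Mrpl58 (-0.01) reached 0.16 and a call after quantile normalization, where the cause was not tested. Tested members held 23 to 2632 reads per library, with a median of 402, and 3 of them fell below 100 reads in a library, which limits what could be called for these.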
